A study of Mus musculus with 12 samples.

Results

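Melatonin is made in the pineal gland, a small body at the back of the brain roof. Its synthesis starts from tryptophan, which *Tph1* hydroxylates, and ends with acetylation of serotonin by *Aanat* and methylation by *Asmt*. Pinealocytes are relatives of photoreceptors: they use the homeobox factor *Crx* and carry parts of the light-signalling cascade, such as the arrestin *Sag* and the transducin gamma subunit *Gngt1*. Many laboratory mouse strains make little melatonin, because they carry variants of *Aanat* and *Asmt*.

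The genes described here are 8 of the 27179 gene IDs counted in adult mouse hippocampus: the enzymes *Asmt*, *Aanat* and *Tph1*, the transcription factor *Crx*, the phototransduction genes *Sag* and *Gngt1*, the ganglionic nicotinic receptor subunit *Chrna3*, and the melatonin receptor *Mtnr1a*. They were picked by symbol. *Asmt* was chosen by its low counts in *Nell-1+/6R* mice in these same libraries, and the other 7 were named as pineal gland genes to be read beside it, so the genotype values of the 8 genes, counts past a threshold included, are a description and support nothing. The question put to the counts was whether *Asmt* follows the other pineal genes from mouse to mouse.

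RNA was sequenced from the hippocampus of 12 mice aged 3 months: 6 WT littermates and 6 *Nell-1+/6R* mice. Each genotype had 3 of either sex. *Nell-1+/6R* mice carry 1 copy of 6R, a chemically induced allele that disrupts *Nell-1* in all tissues. The mice had no treatment. Nothing in the sources used here says that a sample pooled mice, and the titles of the WT samples also hold the word Het, whereas their genotype field says WT. Total counts per mouse ranged from 10834905 to 16016317. *Nell1*, the check of the labels, averaged 36.8 ± 4.85 CPM (counts per 1000000 counts of the mouse) in WT mice, against 19.0 ± 2.00 CPM in *Nell-1+/6R* mice (SD over 6 mice each), with no overlap between the genotypes. The 10 hippocampal principal neuron genes, led by the neuronal factor *Neurod2*, summed to 1115 to 1289 CPM in WT and 1123 to 1295 CPM in *Nell-1+/6R* mice, and none passed the thresholds used below.

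The upstream sequences of these genes are shown because the photoreceptor factor Crx and its relatives bind the core TAATCC. RefSeq sequence on GRCm38.p6, the mm10 build to which the reads were aligned, was found for 7 of the 8 genes, and it held no unknown bases for 6. TAATCC, or GGATTA on the other strand, was present in the 250 bases before a start site in 3 of these 6 genes (*Crx*, *Sag* and *Gngt1*) and in 7.21% of 27018 genes. These windows run 5′ to 3′ on the strand of the gene, with the core in capitals. The window of *Crx* is chr7:15879956-15880205 on the minus strand, that of *Sag* chr1:87803430-87803679 on the plus strand, that of *Gngt1* chr6:3993758-3994007 on the plus strand, and that of the upstream start of *Tph1*, shown for contrast since *Tph1* has no core, chr7:46672538-46672787 on the minus strand.
Crx: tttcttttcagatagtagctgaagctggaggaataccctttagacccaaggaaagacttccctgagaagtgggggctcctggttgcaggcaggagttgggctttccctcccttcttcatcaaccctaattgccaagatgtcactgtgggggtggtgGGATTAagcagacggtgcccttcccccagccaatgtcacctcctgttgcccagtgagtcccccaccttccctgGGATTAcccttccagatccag
Sag: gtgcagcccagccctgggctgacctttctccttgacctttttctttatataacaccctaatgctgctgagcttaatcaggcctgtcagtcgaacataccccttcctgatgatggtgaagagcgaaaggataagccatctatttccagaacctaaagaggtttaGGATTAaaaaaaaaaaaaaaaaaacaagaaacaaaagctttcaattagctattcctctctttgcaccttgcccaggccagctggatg
Gngt1: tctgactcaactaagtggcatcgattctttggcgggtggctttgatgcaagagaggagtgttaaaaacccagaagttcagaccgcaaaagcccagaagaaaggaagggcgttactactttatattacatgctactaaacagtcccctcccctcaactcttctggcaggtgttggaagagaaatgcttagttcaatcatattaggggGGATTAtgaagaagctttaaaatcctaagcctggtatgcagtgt
Tph1: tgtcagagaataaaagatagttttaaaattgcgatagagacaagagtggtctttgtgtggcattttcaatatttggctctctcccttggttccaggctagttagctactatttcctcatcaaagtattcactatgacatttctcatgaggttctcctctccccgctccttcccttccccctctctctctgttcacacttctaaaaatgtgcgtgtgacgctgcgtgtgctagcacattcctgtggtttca
*Crx* holds 2 copies, *Sag* 1 and *Gngt1* 1. The start sites used for *Sag* and *Gngt1* lie inside the annotated span of these genes. The other start site of *Tph1*, *Chrna3* and *Mtnr1a* hold none in their windows, which says only that these letters are not there.

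*Asmt*, the last enzyme of melatonin synthesis (Entrez ID 107626), lies on the X chromosome at chrX:170672644-170678054 on the plus strand, with 8 exons. The gene sits in the pseudoautosomal region that X and Y share, and the 250 bases before it are unknown in the assembly. Its first coding stretch, chrX:170672667-170672753, is shown because the gene's base composition is extreme, with 72.4% G or C in these 87 bases.
Asmt coding start: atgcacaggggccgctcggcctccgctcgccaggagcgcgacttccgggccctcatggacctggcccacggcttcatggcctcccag
Over the whole transcript 75.9% of bases are G or C. Of 16893 tested genes with a transcript, 1 had a higher share, and the median was 49.9%. None of the 1142 stretches of 50 bases of *Asmt*, the read length, occurs in a transcript of another gene in GENCODE M21. The genome itself was not searched, so a match on the Y part of the shared region was not looked for.

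*Asmt* was low in every mouse. Its raw counts were 8, 11 and 4 in the female WT mice and 10, 4 and 5 in the male WT mice. In *Nell-1+/6R* mice they were 0, 3 and 0 in females and 2, 0 and 1 in males. Every *Nell-1+/6R* mouse lay below every WT mouse, in both sexes. Such a complete separation was seen in 0.134% of 17937 genes tested (24 genes), and nothing is read from it here, since this contrast chose *Asmt*.

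The *Asmt* level was 0.556 ± 0.273 CPM in WT mice, against 0.0752 ± 0.0982 CPM in *Nell-1+/6R* mice (SD over 6 mice each). Summed over mice this was 42 against 6 counts, a WT level 7.31 times the *Nell-1+/6R* level with a 95% exact interval from 3.09 to 21.0, which covers counting error only. Females held 23 against 3 counts and males 19 against 3. The fitted log2 fold change of *Nell-1+/6R* over WT was -2.72 with a standard error of 0.644 (edgeR, sex as covariate). It ranged from -3.43 to -2.46 in 12 fits that each left out 1 mouse. The 12 tested genes with at least 70% G or C, *Asmt* among them, had a median log2 fold change of 0.0029, and 6 of the 12 were below 0. Over all tested genes, each symbol taken once, the median was -0.0007.

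**Figure D1:**
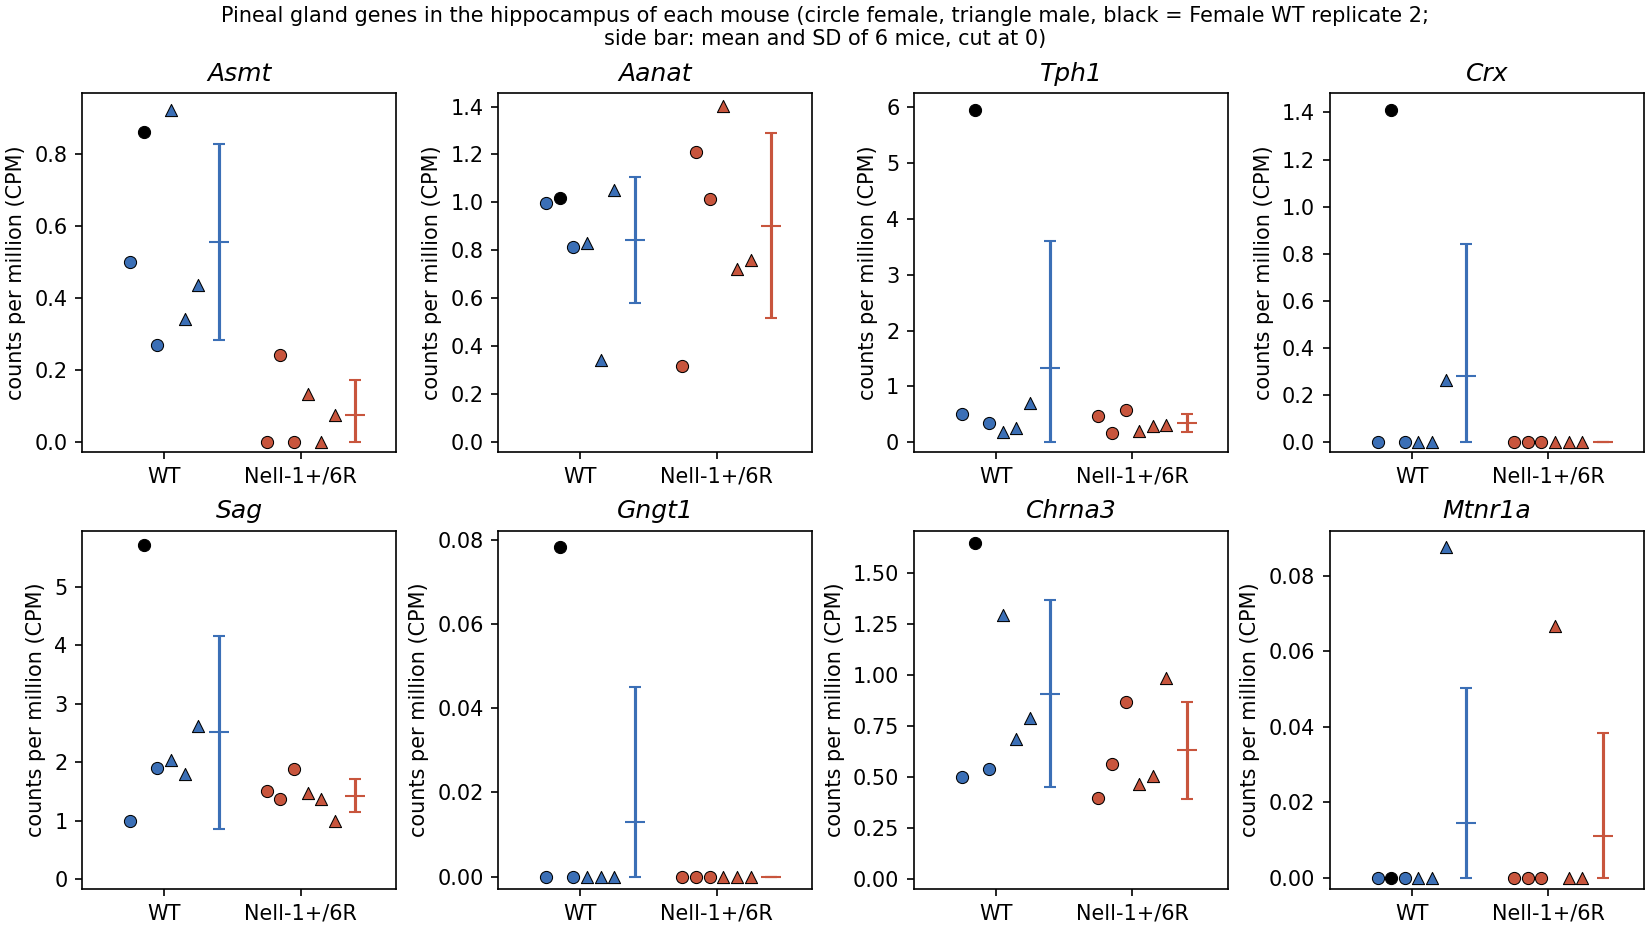
Level in CPM (vertical axes) of the 8 pineal gland genes in each of 12 mice, by genotype, with circles for females, triangles for males, black for female WT replicate 2, and the mean and SD of 6 mice beside the points. *Asmt* separates the genotypes with no overlap, while *Tph1*, *Crx* and *Sag* are set apart by the black point, at 5.95, 1.41 and 5.72 CPM.

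*Aanat*, which acetylates serotonin and sets the night-time rate of melatonin synthesis, lies at chr11:116591721-116597680 (Entrez ID 11298). It had 16, 13 and 12 counts in female WT mice and 9, 4 and 12 in male WT mice. *Nell-1+/6R* females had 4, 15 and 14 and males 21, 10 and 10. The genotypes overlapped over nearly their whole range. *Aanat* was at 0.842 ± 0.264 CPM in WT mice, against 0.903 ± 0.388 CPM in *Nell-1+/6R* mice (SD over 6 mice each), and its log2 fold change was 0.12 with a standard error of 0.338. The highest mouse for *Aanat*, at 1.40 CPM, was male *Nell-1+/6R* replicate 1, where *Asmt* had 2 counts. The lowest, at 0.316 CPM, was female *Nell-1+/6R* replicate 1, with 0 counts of *Asmt*.

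*Tph1*, the tryptophan hydroxylase of the pineal gland and the gut (Entrez ID 21990), lies on the minus strand of chromosome 7 at chr7:46644641-46672537, 3.30 Mb from *Nell1*. Its counts were 8, 76 and 5 in female WT mice and 2, 3 and 8 in male WT mice, against 6, 2 and 8 in *Nell-1+/6R* females and 3, 4 and 4 in males. Female WT replicate 2 alone held 58.9% of the counts of all 12 mice. The other 11 mice lay between 2 and 8 counts and the genotypes overlapped there. With every mouse *Tph1* was at 1.32 ± 2.28 CPM in WT mice, against 0.334 ± 0.161 CPM in *Nell-1+/6R* mice (SD over 6 mice each), a log2 fold change of -1.73 with a standard error of 0.761. Without female WT replicate 2 the log2 fold change was -0.27 with a standard error of 0.425.

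*Crx*, the homeobox factor of photoreceptors and pinealocytes (Entrez ID 12951), lies on the minus strand at chr7:15865947-15879955. It had 18 counts in female WT replicate 2 and 3 in male WT replicate 3, and no count in the other 10 mice. No count over the 6 *Nell-1+/6R* mice allows a level of up to 0.0371 CPM. Against that floor of 3 counts over the group, *Crx* was at least 7.31-fold lower than in WT, a bound that rests on 1 mouse: the other 5 WT mice held 3 counts together, and no fold is given without it. The gene then fell below the filter on low counts and was not tested.

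*Sag*, the arrestin that switches off activated opsin (Entrez ID 20215), lies at chr1:87798143-87845158. It was the most highly counted of the 8 genes, with 16, 73 and 28 counts in female WT mice and 22, 21 and 30 in male WT mice, against 19, 17 and 26 in *Nell-1+/6R* females and 22, 19 and 13 in males. Female WT replicate 2 was again the highest mouse, and the remaining mice of both genotypes overlapped between 13 and 30 counts. *Sag* was at 2.51 ± 1.66 CPM in WT mice, against 1.43 ± 0.287 CPM in *Nell-1+/6R* mice (SD over 6 mice each). The log2 fold change was -0.77 with a standard error of 0.339, and -0.34 with a standard error of 0.245 without female WT replicate 2. Of the 50-base stretches of *Sag* transcripts, 3.11% also occur in transcripts of other genes, so a small part of its reads could be shared.

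*Chrna3*, an acetylcholine receptor subunit of autonomic ganglia, the medial habenula and the pineal gland (Entrez ID 110834), lies at chr9:55010117-55026562 on the minus strand, between its partner genes *Chrna5* and *Chrnb4*. It had 8, 21 and 8 counts in female WT mice and 14, 8 and 9 in male WT mice, against 5, 7 and 12 in *Nell-1+/6R* females and 7, 7 and 13 in males. The genotypes overlapped, at 0.909 ± 0.459 CPM in WT mice, against 0.631 ± 0.239 CPM in *Nell-1+/6R* mice (SD over 6 mice each). Its log2 fold change of -0.48 with a standard error of 0.361 was -0.17 with a standard error of 0.329 without female WT replicate 2.

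*Gngt1* (Entrez ID 14699, chr6:3989082-3997436), the gamma subunit of rod transducin, had 1 count in all, in female WT replicate 2. *Mtnr1a* (Entrez ID 17773, chr8:45069107-45089233), the melatonin receptor MT1, had 1 count in male WT replicate 3 and 1 in male *Nell-1+/6R* replicate 1. No difference between genotypes was detectable for either at this depth. The absence of a *Gngt1* count in *Nell-1+/6R* mice allows up to 0.0371 CPM.

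Per length of merged exons all 8 genes were below 1 RPKM (CPM divided by the length in kilobases) in the mean of either genotype. In WT mice the mean levels in RPKM ran from *Aanat* (0.506 ± 0.159) and *Asmt* (0.467 ± 0.229) through *Sag* (0.282 ± 0.186), *Tph1* (0.214 ± 0.369) and *Chrna3* (0.173 ± 0.0873) to *Crx* (0.0882 ± 0.179), with SD over 6 mice. *Mtnr1a* and *Gngt1* were last, at 0.0071 and 0.0037 RPKM. Each gene lay within 1 SD of its neighbours in this order, down to *Crx*. In *Nell-1+/6R* mice *Aanat* (0.543 ± 0.233) came first, followed by *Sag* (0.161 ± 0.0323) and *Chrna3* (0.120 ± 0.0454). *Asmt* (0.0632 ± 0.0824) and *Tph1* (0.0542 ± 0.0261) lay within 1 SD of each other. *Asmt* thus stood next to *Aanat* in WT mice and below *Sag* and *Chrna3* in *Nell-1+/6R* mice.

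Of these genes, 6 reached the filter, which asked for 0.2 CPM or more in 2 or more mice, and 2, *Gngt1* and *Mtnr1a*, did not. Of the 6 tested, 4 (*Asmt*, *Tph1*, *Crx* and *Sag*) were lower in *Nell-1+/6R* mice at the thresholds of the study (fold change over 1.5 with an unadjusted p under 0.05), and none was higher. Over all 17937 genes tested 1.07% were lower and 0.385% higher by the same rule, and the choice of *Asmt* from this contrast bars a reading of that gap. None of the 4 had an adjusted p under 0.05 in edgeR, and 0 did in limma-voom or DESeq2. Without female WT replicate 2 the count was 1 of 5 tested, *Asmt*, where 0.907% of all genes were lower. It was also 1 in limma-voom and 1 or 2 in 8 of the 12 fits without 1 mouse.

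**Figure D2:**
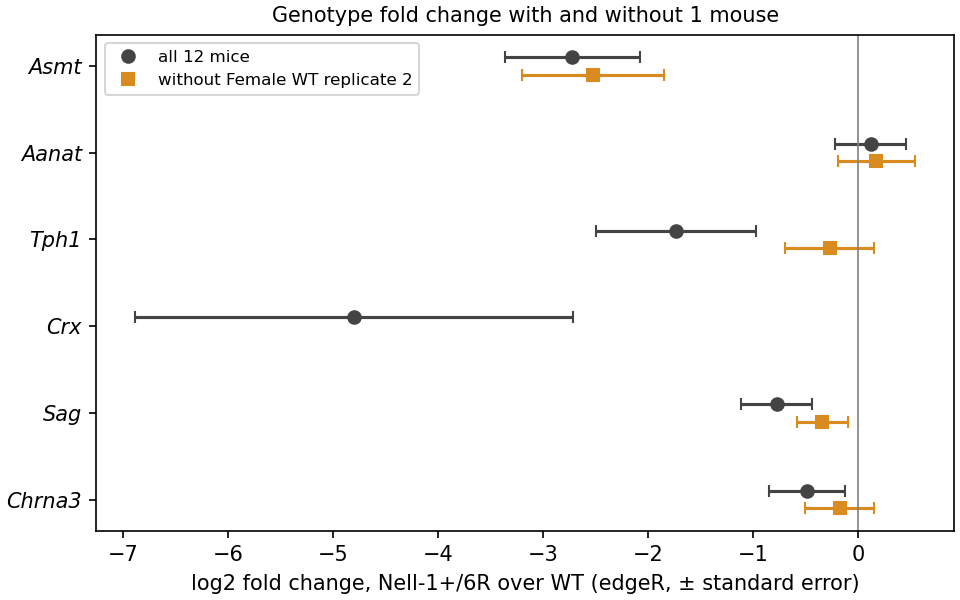
Log2 fold change of *Nell-1+/6R* over WT (horizontal axis) with its standard error from edgeR, for the 6 genes that passed the filter, with all 12 mice (circles) and without female WT replicate 2 (squares; *Crx* then fell below the filter, and its fitted value with 0 counts in *Nell-1+/6R* mice is no bound). *Asmt* moves from -2.72 to -2.53, and *Tph1* from -1.73 to -0.27.

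Between the sexes, a contrast that played no part in the choice of genes, 0 of the 6 tested genes reached an adjusted p under 0.05, whether by edgeR, by limma-voom or by DESeq2, against 0.0335% of all genes tested (6 genes). In edgeR 1 of the 6 had an unadjusted p under 0.05. This was *Tph1*, with a log2 difference of males minus females of -1.75 and a standard error of 0.768 (edgeR, unadjusted p = 0.0392, adjusted p = 0.868). Without female WT replicate 2 it was -0.35 (edgeR, unadjusted p = 0.417). For *Asmt* the log2 difference of males minus females was 0.06 with a standard error of 0.584 (edgeR, adjusted p = 0.988), so a difference of around 1 log2 unit in either direction could not be told from none.

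Female WT replicate 2 thus held the highest level of *Tph1*, *Crx*, *Sag* and *Chrna3*, which are 4 of the 6 genes with at least 10 counts in all. It was the highest mouse for 10.1% of 18463 genes with that many counts. A rule set after this mouse had been noticed asked for genes with at least 10 counts in a library and a CPM at least 3 times that of the highest other mouse. It found 12 genes there, or 0.0442% of the 27179 gene IDs, among them *Tph1* and *Crx*. The other libraries gave 0 to 4 genes, except female *Nell-1+/6R* replicate 3 with 19, none of them a gene described here.

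Of the other 10 genes, 6 were on the list of 22 further phototransduction genes taken up with the gene lists, and the list's other 16 did not meet this rule. *Rbp3*, which carries retinoids between photoreceptors and pigment epithelium, had 105 counts there and at most 12 in any other mouse. *Gnb3*, the transducin beta subunit of cones, had 91 against at most 5. *Pde6g*, *Pde6b* and *Pde6c*, subunits of the photoreceptor phosphodiesterase, had 51, 16 and 14 against at most 8, 6 and 2. *Tulp1* and *Prph2*, proteins of photoreceptor outer segments and their upkeep, had 29 and 12 against at most 7 and 4. *Chrnb4*, the partner of *Chrna3*, had 72 against at most 18, the LIM homeobox gene *Lhx4* had 10 against at most 1, and *Gckr*, the glucokinase regulator, had 11 against at most 3.

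**Figure D3:**
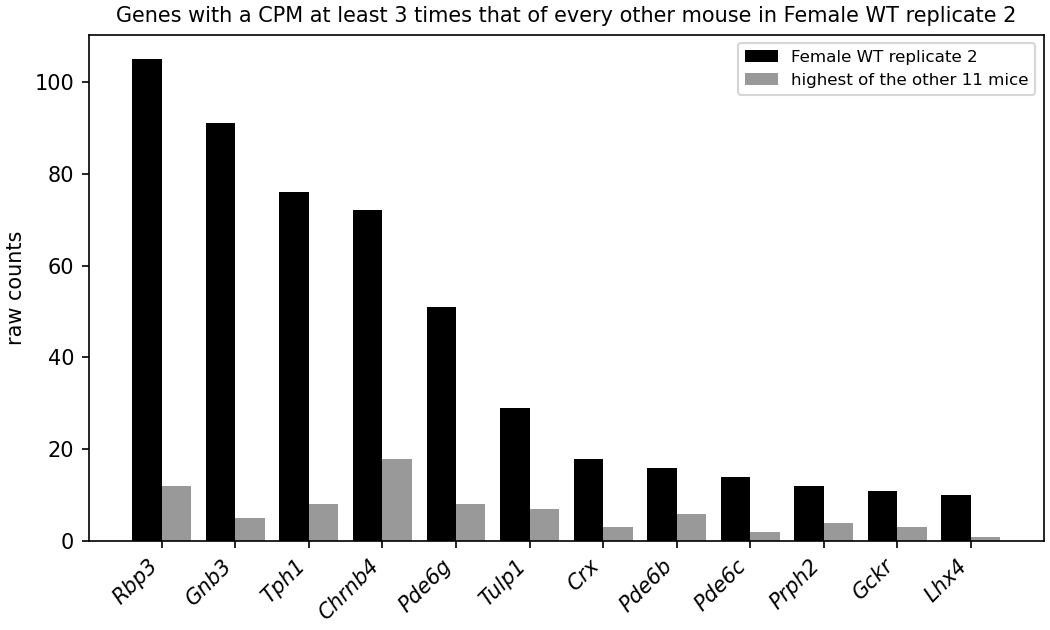
Raw counts (vertical axis) of the 12 genes whose CPM in female WT replicate 2 (black bars) was at least 3 times that of any other mouse, beside the highest count in any of the other 11 mice (grey bars). *Rbp3* has 105 against 12 counts and *Gnb3* 91 against 5, and *Tph1* and *Crx* belong to the pineal gland genes described.

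Against the other 5 WT mice, female WT replicate 2 held 30.4 times the *Crx* level (95% exact interval 8.88 to 161), 14.8 times the *Tph1* level (9.38 to 24.1), 3.16 times the *Sag* level (2.33 to 4.27) and 2.26 times the *Chrna3* level (1.29 to 3.86). These intervals cover counting error only, and the mouse was singled out for these values. For *Asmt*, with 11 counts there, the ratio was 1.80 (0.816 to 3.68) and for *Aanat* 1.24 (0.622 to 2.31). The *Asmt* interval holds 1 as well as the ratios of *Sag* and *Chrna3*, so at this depth *Asmt* could not be told apart from either. The highest *Asmt* level, 0.923 CPM, was in male WT replicate 1, where *Crx* and *Rbp3* had 0 counts and *Tph1* 2. In the same mouse *Chrna3*, with 14 counts (1.29 CPM), was next to the highest of the 12 mice, and *Sag* had 22 counts (2.03 CPM). Without female WT replicate 2 the WT mice held 31 counts of *Asmt*, 6.46 times the *Nell-1+/6R* level (2.66 to 18.9).

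Summed over the 7 genes other than *Asmt*, female WT replicate 2 stood at 15.8 CPM and the other WT mice between 3.00 and 5.51 CPM. *Nell-1+/6R* mice lay between 2.69 and 4.34 CPM, within or just below the range of these 5 WT mice. The mean in *Nell-1+/6R* mice was 0.562 of the WT mean with every mouse and 0.847 without female WT replicate 2, where it was 3.31 ± 0.597 CPM (SD, n = 6) against 3.90 ± 1.05 CPM (SD, n = 5).

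**Figure D4:**
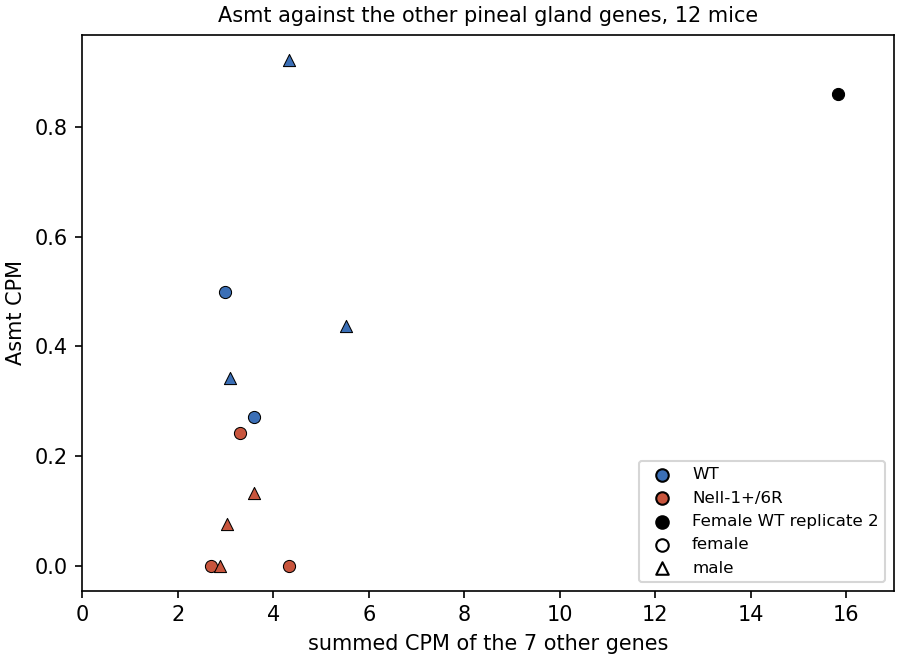
*Asmt* level (vertical axis, CPM) against the summed CPM of the 7 other pineal gland genes (horizontal axis) in 12 mice, blue for WT, red for *Nell-1+/6R*, black for female WT replicate 2, circles for females and triangles for males. The other 11 mice lie between 2.69 and 5.51 CPM in the sum, and among them *Asmt* separates the genotypes.

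After the means of sex and genotype were taken out of log2 CPM, the residuals of *Asmt* over 12 mice had Pearson correlations of 0.56 with *Aanat*, 0.48 with *Chrna3*, 0.33 with *Crx*, 0.24 with *Sag* and 0.13 with *Tph1*. Of 14827 genes with a mean count of at least 10, the most alike were *Dym* (0.93), *Gstm4* (0.90), *Atad3a* (0.89), *Aen* (0.89) and *Dusp22* (0.89). These mice share libraries and depth between genes, and *Asmt* rests on 11 or fewer counts in each, so the values are a description.

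The remaining steps of melatonin synthesis gave no call by genotype. The 8 other genes of this list are *Tph2*, *Ddc* and the makers and recyclers of the hydroxylase cofactor tetrahydrobiopterin (*Gch1*, *Pts*, *Spr*, *Qdpr*, *Pcbd1*, *Pcbd2*). All 8 were tested, 0 passed the thresholds in either direction, and their median log2 fold change was -0.02, against -0.0008 for all genes tested. The dihydropteridine reductase *Qdpr*, with the most counts, was at 80.2 ± 13.5 CPM in WT mice, against 76.2 ± 20.7 CPM in *Nell-1+/6R* mice (SD over 6 mice each). The brain tryptophan hydroxylase *Tph2* was at 0.798 ± 0.190 and 0.719 ± 0.187 CPM.

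Of 11 genes that break down melatonin or serotonin, 10 were tested and 1 was lower at the thresholds. This was *Cyp1b1*, a cytochrome P450 that hydroxylates melatonin and is also found in vessel walls and meninges, with a log2 fold change of -0.81 (standard error 0.250), at 42 to 118 counts in WT and 25 to 83 in *Nell-1+/6R* mice. The median of the 10 was -0.06. Of the melatonin receptor family *Mtnr1b* had no count in any mouse, and the related orphan receptor *Gpr50* had 0 to 10 counts in either genotype (log2 fold change -0.31, standard error 0.758).

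Of 12 further genes of pinealocyte transcription and noradrenergic input, 9 were tested and 0 passed the thresholds, with a median log2 fold change of -0.04. The adrenergic receptor *Adrb1*, through which night-time noradrenaline acts on pinealocytes, had the most counts, at 27.2 ± 2.53 CPM in WT mice, against 26.2 ± 1.88 CPM in *Nell-1+/6R* mice (SD over 6 mice each). The highest mouse was female WT replicate 2 for 5 of the 12, among them the pineal homeobox gene *Bsx*, with 8 counts against at most 1.

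Of 22 further phototransduction genes, 16 were tested and 1, *Rbp3*, was lower (log2 fold change -2.89 with a standard error of 1.24, and -0.10 without female WT replicate 2). Their median was -0.26, and 0.23 without that mouse, so its sign turned. Their summed level was 39.1 CPM in female WT replicate 2, 8.92 to 13.4 CPM in the other WT mice and 8.50 to 17.7 CPM in *Nell-1+/6R* mice. *Rom1*, a disc rim protein, had the most counts, with a log2 fold change of 0.02. Of the rod genes, *Pdc* and *Cnga1* had no count in any mouse, and *Gnat1* had 0 counts in female WT replicate 2.

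Genes of tissues around the hippocampus differed between mice as well, and their part in the *Asmt* result was not tested. Of the 12 further habenula genes, 11 were tested and 2 were lower, *Chrnb4* (log2 fold change -1.72, and -0.45 without female WT replicate 2) and the vesicular glutamate transporter *Slc17a6* (-1.23), and *Nwd2* had the most counts (0.0019). *Slc17a6* lies on chromosome 7, 0.759 Mb from *Nell1*, and all 6 *Nell-1+/6R* mice were below every WT mouse for it, as for 0.134% of all genes tested. The median of the habenula genes was -0.08, and their sums ran from 56.5 to 71.3 CPM in WT and from 42.9 to 61.8 CPM in *Nell-1+/6R* mice. *Slc17a6* was also the 1 gene lower among 8 thalamic genes, whose median was -0.19 and whose sums ran from 79.9 to 126 CPM and from 69.1 to 95.2 CPM, led by *Prkcd* (-0.10). The defining habenula factor *Pou4f1* had at most 2 counts in a mouse. All 7 serotonergic neuron genes were counted, 4 were tested and 0 passed (median -0.09), with sums of 15.4 to 20.2 CPM and 16.3 to 21.3 CPM, led by *Slc18a2*. Of 8 further nicotinic receptor genes, 1, *Chrnb4*, was lower (median -0.05), and *Chrnb2*, with the most counts, had a log2 fold change of 0.10.

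Mast cells, which also use *Tph1*, sit in the meninges and along vessels. Of 9 further mast cell genes, 6 were tested and 4, all granule proteases, were lower, where 1.07% of all genes tested were. These were *Mcpt4* (0 to 7 counts in WT, 0 to 1 in *Nell-1+/6R* mice), *Tpsb2* (0 to 5 and 0), *Cma1* (0 to 8 and 0 to 1) and *Cpa3* (0 to 6 and 0 to 2). No *Nell-1+/6R* mouse reached 0.2 CPM for any of the 4. They passed the filter through WT mice alone, so lower was the only call open to them and is not read as support. Without female WT replicate 2, *Cma1* fell below the filter and 3 of 5 tested were lower, where 0.907% of all genes were. *Tpsb2*, with 17 counts in WT and 0 in *Nell-1+/6R* mice, was at least 5.92-fold lower when 3 counts are taken as the most that the 0 allows in that group. The WT level was 23.0 times the *Nell-1+/6R* level for *Mcpt4* (95% exact interval 3.71 to 948), 9.92 times for *Cma1* (2.39 to 87.9) and 9.40 times for *Cpa3* (2.25 to 83.5), where *Nell-1+/6R* mice held 1 or 2 counts in all. *Ms4a2* and *Fcer1a*, subunits of the IgE receptor that defines these cells, had no count in any mouse, and *Kit*, with the most counts, is also made by neurons (0.15). The summed level of the list without *Tph1* was 78.6 to 115 CPM in WT and 67.8 to 136 CPM in *Nell-1+/6R* mice. Its mean was 92.4 ± 14.0 CPM in WT mice, against 100 ± 21.8 CPM in *Nell-1+/6R* mice (SD over 6 mice each), so this sum was not lower. Without *Kit* and *Hdc*, left out after their values had been seen, the sum was 0 to 1.57 CPM and 0 to 0.228 CPM. What remains holds the 4 genes called lower, so this sum adds nothing to those calls. In 5 of the 6 WT mice this sum, at 0.686 to 1.57 CPM, was above that of every *Nell-1+/6R* mouse, and in male WT replicate 3 it was 0, with 5 counts of *Asmt*. The median log2 fold change of the 6 tested was -2.72, or -2.64 with *Tpsb2* put at its bound.

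Of 12 leptomeningeal fibroblast genes, all tested, 7 were lower (4 without female WT replicate 1, where 0.805% of all genes were), with a median log2 fold change of -1.01. *Col1a1* (-0.93), *Col3a1* (-1.16), *Col1a2* (-1.09) and *Aldh1a2* (-1.42) had the smallest p of the list, and *Igf2* the most counts (-0.89). Their sums were 128 to 438 CPM in WT and 71.6 to 421 CPM in *Nell-1+/6R* mice. Of the 6 *Nell-1+/6R* mice, 4 lay below every WT mouse, at 71.6 to 124 CPM. The other 2, female replicates 1 and 3, lay within the WT range, at 421 and 239 CPM, and each had 0 counts of *Asmt*. Of 10 choroid plexus genes, all tested, 0 passed (median -1.0003) with every mouse. Without female *Nell-1+/6R* replicate 1, all 10 were lower (1.75% of all genes tested were), with a median of -3.60, and without male WT replicate 3 the median was 0.26 and 0 passed, where 1.01% of all genes were lower. Their sums, mostly transthyretin (*Ttr*), ran from 53.9 to 4666 CPM in WT and from 44.6 to 5376 CPM in *Nell-1+/6R* mice. The 5 *Nell-1+/6R* mice other than female replicate 1 lay between 44.6 and 78.5 CPM, and the 5 WT mice other than female replicate 3 at 131 CPM or more. The mouse with the highest choroid plexus sum, female *Nell-1+/6R* replicate 1, had 0 counts of *Asmt*, and female WT replicate 3, with 53.9 CPM, had 4. In bulk tissue, fewer cells of a type and less RNA per cell cannot be told apart.

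**Figure D5:**
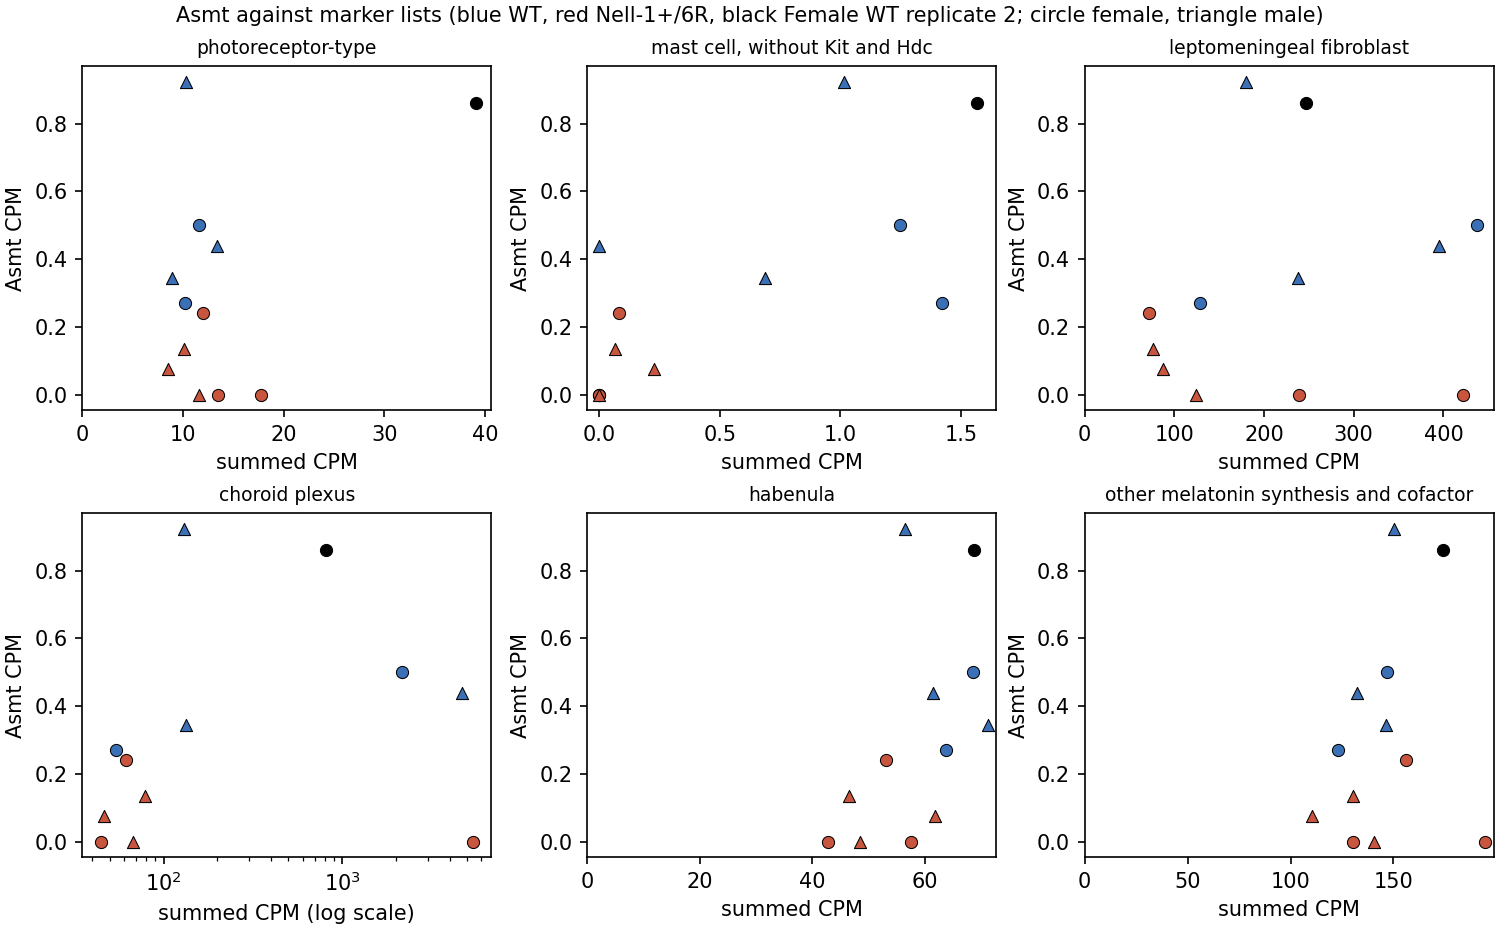
*Asmt* level (vertical axes, CPM) against the summed CPM of 6 gene lists (horizontal axes, log scale for choroid plexus) in 12 mice, blue for WT, red for *Nell-1+/6R*, black for female WT replicate 2, circles for females and triangles for males. In the leptomeningeal list 4 *Nell-1+/6R* mice lie below every WT mouse and 2, at 421 and 239 CPM, lie within the WT range with no *Asmt* count, and in the choroid plexus list 1 WT mouse, at 53.9 CPM, lies among 5 *Nell-1+/6R* mice and the other *Nell-1+/6R* mouse, at 5376 CPM, above every WT mouse.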

How the data were processed

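Hippocampus RNA was sequenced as single reads of 50 bases. Per the labels and the study's methods, the authors aligned the reads to mm10 with HISAT2 (2.1.0) and deposited raw counts per Entrez gene ID from featureCounts (2.0.1 in the labels), with no normalization. Strand setting and treatment of reads with several alignments were not stated in the sources used here. Of 27179 IDs, 25275 matched a RefSeq symbol.

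Counts were fitted with edgeR 4.0.16 (R 4.3.3) by its quasi-likelihood test, with TMM factors, sex and genotype as terms, over the 17937 genes that reached 0.2 CPM in 2 or more mice. Adjusted p-values are Benjamini-Hochberg over all of these. The fit was tested on simulated data. limma 3.58.1 and DESeq2 1.42.0 were alternatives. CPM and RPKM were computed here from total counts and GENCODE M21 exons. Ratios of summed counts carry exact 95% intervals for counting error, and reads without molecular identifiers are not independent molecules.

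The 8 genes and the 14 lists (pineal gland genes, melatonin synthesis, breakdown and receptors, pinealocyte factors, phototransduction, habenula, thalamus, mast cell, leptomeninges, choroid plexus, serotonergic neuron, nicotinic receptors, hippocampal principal neuron) were chosen with earlier results of these data known. Named beside the 8 genes were *Nell1*, up to 4 genes per list past the thresholds by smallest p, the most counted gene of each list (for 1 list it is not reported here), and the 5 genes most like *Asmt*. Other genes were named after their values were seen, as part of the account of female WT replicate 2 or as defining markers. No chance test was built on the lists.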

Additional observations from a re-analysis of the deposited data

Results flagged for a closer look

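In groups of 6 mice, a mouse was singled out where its gap to the nearest other mouse, divided by the range of the group, was above Dixon's 95% critical value, which chance passes in about 1 group in 20. Groups with 3 or fewer counts of a gene, which are *Gngt1* and *Mtnr1a* in both genotypes and *Crx* in *Nell-1+/6R* mice, were left out, since a single count there stands apart by construction. Female WT replicate 2 was the highest WT mouse by this measure for *Tph1* (0.911), *Crx* (0.814), *Sag* (0.655) and the summed CPM of the 7 genes other than *Asmt* (0.804). Male WT replicate 2 was the lowest WT mouse for *Aanat* (0.663), with 4 counts. Among the groups with more counts, no *Nell-1+/6R* mouse and no *Asmt* value was above it, and none of the 6 tested genes had a genotype by sex interaction with an adjusted p under 0.05 (edgeR).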

How the results depend on the processing

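The log2 fold change of *Asmt*, a description since this contrast chose the gene, ranged from -3.43 to -2.46 with 1 mouse left out. The count of the 8 genes past the thresholds moved from 4 to 1 in limma-voom, both with the sex term and with genotype only, to 2 in DESeq2, which gave no p for *Tph1*, to 1 when 1 CPM was asked for in 6 or more mice, where *Sag* was the only gene of the 8 left, and to 0 by adjusted p. With 1 mouse left out it ranged from 1 to 4: it was 1 when female WT replicate 2, male WT replicate 3, or the first or second of the female *Nell-1+/6R* replicates was left out, and 2 when male WT replicate 1, the third of the female *Nell-1+/6R* replicates, or the first or second of the males was left out. With the replicate block, which pairs mice of a sex by number, the count was 2 and *Asmt* was at -2.81. Pairing by number was not visible: deviations of same-numbered mice correlated above 0.1 in 2 of 6 pairs, and 4 of 12 mice matched their own number best. This does not show that the mice were unpaired. Of the other 124 list genes 106 were tested and 15 passed, all of them lower (14.2%, where 1.07% of all genes tested were lower). Of these 15, 7 were leptomeningeal and 4 mast cell genes. The lists were chosen with earlier results of these data known, which bars a reading of that gap. With the stricter filter 9 of 74 passed (12.2%, against 0.522% of all genes). With 1 mouse left out 12 to 28 passed, the highest without female *Nell-1+/6R* replicate 1, where 27 of 104 were lower (26.0%, against 1.75% of all genes) and 1 was higher. By list, the number lower with 1 mouse left out ran from 0 to 3 of the phototransduction genes, 1 to 2 of the habenula genes, 4 to 9 of the leptomeningeal genes and 0 to 10 of the choroid plexus genes. The summed CPM ratio of the 7 other genes, 0.562, ranged from 0.511 to 0.847 with 1 mouse left out. The highest was without female WT replicate 2, which also makes most of the WT spread, an SD of 4.95 CPM with it and 1.05 CPM without. RLE size factors, edgeR fitted without sex, and no filter left the count at 4. With 0 to 11 counts of *Asmt* in a mouse, depth limits every statement on single mice.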
